A study of Mus musculus with 15 samples.

Results

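The pleiotrophin receptor Ptprz1, its ligands Ptn and Mdk, and 7 other receptor-type protein tyrosine phosphatases were examined in bulk RNA-seq of 4T1 cells. The 10 genes were taken by their symbols from the 40402 genes of the count table, 8 of them receptors and 2 of them ligands. They were chosen on measured values: Ptprz1 had been seen to be lower in each of the treated libraries, and the other members were set against it. Its levels against untreated cells are therefore given as a description, with no test. 4T1 is an established mouse triple-negative mammary carcinoma line. Cells were left untreated or received an extract of blackberry (BLA) or of blueberry (BLU), or gold nanoparticles made with blackberry (BLA-A) or blueberry (BLU-A). The labels used here give no dose, no treatment time, and no gold nanoparticle without berry. They list 3 samples per condition, but the 3 columns of each condition differed by less than sampling noise (chi-square per degree of freedom 0.0951 to 0.475), so their mean was used as 1 library per condition. Mean totals ran from 25613711 to 26956308 counts. Each labelled sample has a batch date of its own, so batch and condition cannot be told apart.

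Receptor tyrosine phosphatases are membrane proteins that remove phosphate from tyrosine and so oppose the tyrosine kinases. Ptprz1 carries a carbonic anhydrase-like domain and chondroitin sulfate chains outside the cell. Pleiotrophin (Ptn) and midkine (Mdk) are secreted heparin-binding growth factors that bind these chains, which clusters the receptor, lowers its activity and leaves substrates such as beta-catenin phosphorylated. Ptprz1 is best known from glia and from glioma. Ptprg is its closest relative, Ptprf and Ptprs are adhesion receptors of the LAR branch, Ptprk is a homophilic adhesion receptor, Ptprj is a receptor linked to contact inhibition of growth, and Ptpra and Ptpre have short outer parts and act on Src-family kinases.

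Ptprz1 lies on chr6:22875358-23054236 of GRCm39 on the plus strand and no other annotated gene overlaps it (GENCODE release M39). Ptprg lies on chr14:10227722-10916220 on the minus strand. The 250 bases before the annotated start of these 2 related genes, the members with the lowest treated levels among the receptors, are given 5′ to 3′ on the strand of the gene, read from GRCm39. The windows are chr6:22875108-22875357 and chr14:10916221-10916470. Capitals mark matches to 5 motifs searched on both strands: the AP-1 motif, a loosened antioxidant response element core, the E-box, the GC box and the TATA box. The loosened core (TGANNNNGC) allows any base after TGA, so a match to it need not be the element.
Ptprz1: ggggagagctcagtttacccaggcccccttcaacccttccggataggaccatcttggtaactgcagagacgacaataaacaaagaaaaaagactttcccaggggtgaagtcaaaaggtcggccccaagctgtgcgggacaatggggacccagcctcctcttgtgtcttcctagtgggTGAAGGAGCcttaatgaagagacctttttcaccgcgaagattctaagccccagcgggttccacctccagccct
Ptprg: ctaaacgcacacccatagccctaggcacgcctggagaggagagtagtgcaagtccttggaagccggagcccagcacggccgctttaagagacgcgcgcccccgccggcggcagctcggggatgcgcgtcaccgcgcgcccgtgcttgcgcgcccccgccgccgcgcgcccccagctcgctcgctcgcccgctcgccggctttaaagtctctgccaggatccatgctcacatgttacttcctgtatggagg
The Ptprz1 window held 1 match, to the loosened core only, with an A after TGA, and the Ptprg window held none. Over the 21738 windows of this length before protein-coding genes, the loosened core (TGANNNNGC) occurred in 33.5%. The AP-1 motif (TGANTCA), which shares its first letters with that core and can overlap it, occurred in 6.46%, and the E-box (CACGTG) in 5.70%. The GC box (GGGCGG) occurred in 29.9% and the TATA box (TATAAA) in 12.5%. The windows differed in base composition, with 7 CpG and 54.0% G+C for Ptprz1 and 31 CpG and 68.4% G+C for Ptprg, against medians of 6 CpG and 51.2% over all windows.

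Ptprz1 was at 68.8 counts per 1000000 (CPM, normalised by the TMM method) in untreated cells, at 4.77 CPM (BLA), 4.70 (BLU), 3.62 (BLA-A) and 2.95 (BLU-A). The untreated library was the high one, and its 95% counting interval of 65.7 to 72.0 CPM lay far above those of the 4 treated libraries, which together spanned 2.33 to 5.68 CPM. The untreated value rests on a mean of 1831 counts and the treated values on 78.0 to 129.7 counts. The ratio to untreated was 14.4-fold lower in BLA (counting interval 12.0 to 17.3), 14.6-fold in BLU (12.3 to 17.7), 19.0-fold in BLA-A (15.2 to 23.9) and 23.4-fold in BLU-A (18.6 to 29.7). Intervals here cover counting error only, since each condition has 1 library. As log2 fold changes of CPM plus 0.5, the scale used for every call, these were -3.72 (BLA), -3.74 (BLU), -4.07 (BLA-A) and -4.33 (BLU-A). A fold change past 1 on this scale in either direction is counted as past the threshold. Being lower past the threshold in all 4 treatments was met by 238 of the 17594 genes that reached 1 CPM in any library (1.35%), and being higher in all 4 by 57 (0.324%). Among the 9560 of these genes with at least 10 CPM in untreated cells, 14 were lower in all 4 treatments, and 6 had a lower mean log2 fold change than Ptprz1. All 4 folds of a gene, here and below, share the 1 untreated library, so their agreement is not 4 independent observations. In bulk samples, fewer cells carrying a transcript and less of it per cell cannot be told apart.

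The ligands were close to the limit of detection. Ptn, on chr6:36680960-36796991, had a mean of 12.3 counts in untreated cells (0.463 CPM), 1.00 in BLU and 0 in BLA, BLA-A and BLU-A. With 0 counts taken as a limit of 3 counts per library, Ptn was at least 4.20-fold lower with BLA, 3.57-fold lower with BLA-A and 4.09-fold lower with BLU-A, and with BLU the ratio was 12.7-fold lower with a counting interval from 1.84 to 530. Mdk, on chr2:91760143-91762846, had 1.00 count in untreated cells, 1.33 (BLA), 4.67 (BLU), 0.333 (BLA-A) and 10.0 (BLU-A). Its ratio to untreated was 4.51-fold higher in BLU, with an interval that held 1 (0.541 to 229), and 10.1-fold higher in BLU-A (1.43 to 436), and in the other treatments both counts were at or under 3. The limit of 3 counts was 0.109 to 0.130 CPM, and both ligands stayed under 1 CPM in every library. They did not pass the filter on low values, so the counts of members below are out of the 8 receptors that did.

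The other receptors had their own patterns, which the plot of receptor levels by condition shows.

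**Figure D1:**
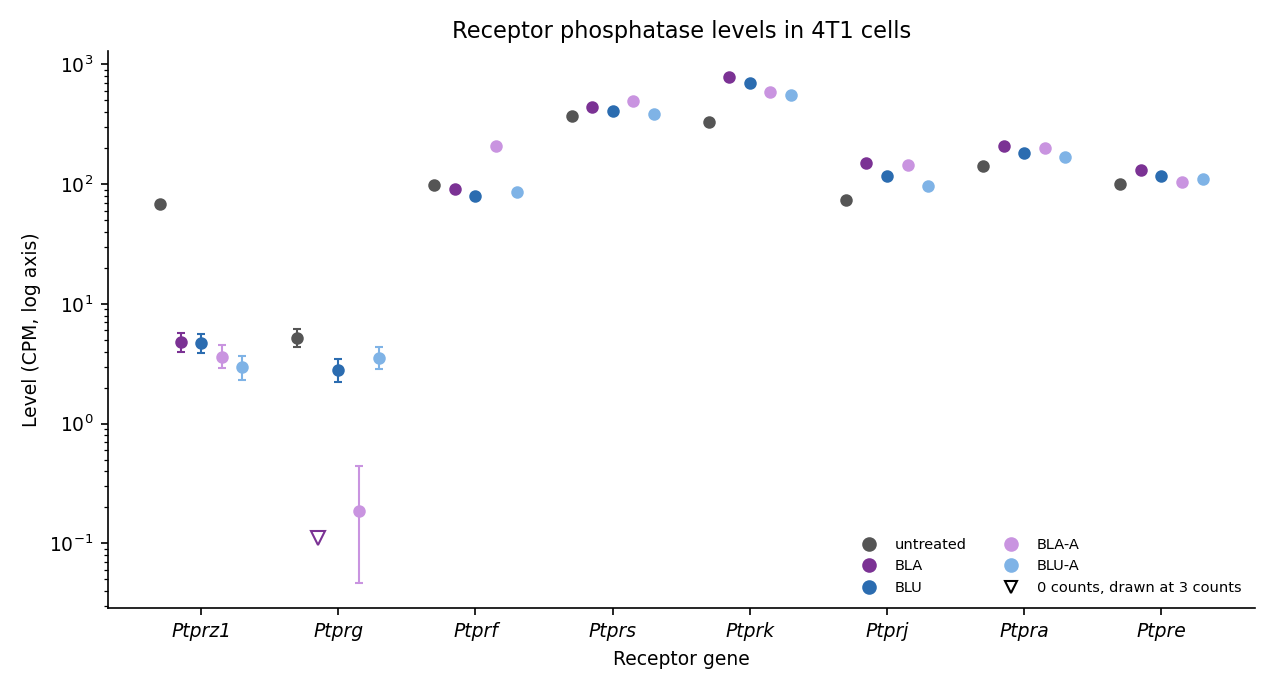
Level of each of the 8 receptor genes in CPM on a log axis, 1 point per condition (mean of the 3 columns, 1 library), with bars for the exact Poisson 95% counting interval; the open triangle is a library with 0 counts, drawn at the limit of 3 counts. Ptprz1 stands at 68.8 CPM in untreated cells and from 2.95 to 4.77 CPM with treatment, and Ptprg is lowest in BLA and BLA-A.

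Ptprg was at 5.19 CPM in untreated cells, 2.79 in BLU and 3.54 in BLU-A, but at 0 counts in all 3 BLA columns and at 0.187 CPM in BLA-A (mean 4.33 counts). The untreated interval (4.36 to 6.13 CPM) lay above those of all treated libraries, and the blackberry libraries lay below the blueberry ones without overlap. Ptprg was at least 47.0-fold lower than untreated in BLA and 27.7-fold lower in BLA-A (11.5 to 112). It was 1.86-fold lower in BLU (1.39 to 2.48) and 1.47-fold lower in BLU-A (1.12 to 1.92).

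In the LAR branch, Ptprf (chr4:118065042-118148627, minus strand) was at 97.7 CPM in untreated cells, 91.6 (BLA), 79.5 (BLU), 208 (BLA-A) and 86.5 (BLU-A). BLA-A stood alone, at 2.13-fold above untreated cells (2.03 to 2.23) and 2.27-fold above BLA (2.16 to 2.38), while the other treated libraries were slightly below the untreated one. Of the 6 epithelial markers tracked for 4T1 identity, 4 (Krt7, Krt8, Krt19 and Cldn7) were also past the threshold upward in BLA-A against BLA (11.6% of all genes). As log2 differences, Krt18 was at 0.61 and Epcam at -0.33 there. The part of these markers in the Ptprf value was not tested. Ptprs (chr17:56718507-56783537, minus strand) was at 368 CPM in untreated cells, 441 (BLA), 405 (BLU), 493 (BLA-A) and 386 (BLU-A), a range of log2 fold changes from 0.07 to 0.42.

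Ptprk, the adhesion receptor, and Ptprj, the growth-control receptor, were above their untreated level in all 4 treated libraries. Ptprk (chr10:27950330-28474223, plus strand) was at 331 CPM in untreated cells, 789 (BLA), 696 (BLU), 589 (BLA-A) and 560 (BLU-A). All 4 treated libraries were above the untreated one with no overlap of intervals, and the extracts were above the nanoparticles. The folds were 2.38 with BLA (2.33 to 2.44), 2.10 with BLU (2.05 to 2.16), 1.78 with BLA-A (1.73 to 1.83) and 1.69 with BLU-A (1.65 to 1.74). Ptprj (chr2:90260098-90410991, minus strand) was at 74.0 CPM in untreated cells, 151 (BLA), 117 (BLU), 144 (BLA-A) and 95.8 (BLU-A). Both blackberry libraries were above both blueberry ones, with folds over untreated of 2.04 (BLA), 1.58 (BLU), 1.95 (BLA-A) and 1.30 (BLU-A).

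Ptpra and Ptpre differed less. Ptpra (chr2:130291839-130400220, plus strand) stood at 141 CPM without treatment and at 209 (BLA), 182 (BLU), 200 (BLA-A) and 170 CPM (BLU-A), all above it. Its span holds an antisense gene, 4930473A02Rik, with a mean of 1070 counts, and its reads and those of Ptpra may not be fully separated. Ptpre (chr7:135139210-135288022, plus strand) stood at 99.7 CPM without treatment and at 130 (BLA), 116 (BLU), 104 (BLA-A) and 110 CPM (BLU-A). In BLA-A its interval of the ratio to untreated held 1 (0.985 to 1.10).

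Counted against the background of all genes tested, 4 of the 8 receptors were past the threshold in BLA, 2 upward (Ptprk and Ptprj; 7.91% of all genes) and 2 downward (Ptprz1 and Ptprg; 8.51%). In BLU, Ptprk was past it upward (5.64% of all genes) and Ptprz1 downward (4.62%). In BLA-A, Ptprf was past it upward (8.55%) and Ptprz1 and Ptprg downward (12.3%). In BLU-A, none was past it upward (3.39%) and Ptprz1 was past it downward (4.49%). Since the members were chosen on treated against untreated cells, nothing is read from these shares. The median log2 fold change of the 8 receptors was 0.32 (BLA), 0.18 (BLU), 0.46 (BLA-A) and 0.11 (BLU-A), against -0.01 (BLA), -0.01 (BLU), -0.01 (BLA-A) and 0.00 (BLU-A) over all genes. Scaling by total counts lowered the all-gene median in BLA-A by 0.17, and it took Ptprf in BLA-A to 0.89 and Ptprj in BLA to 0.99, under the threshold, and Ptpre in BLA-A to -0.14.

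**Figure D2:**
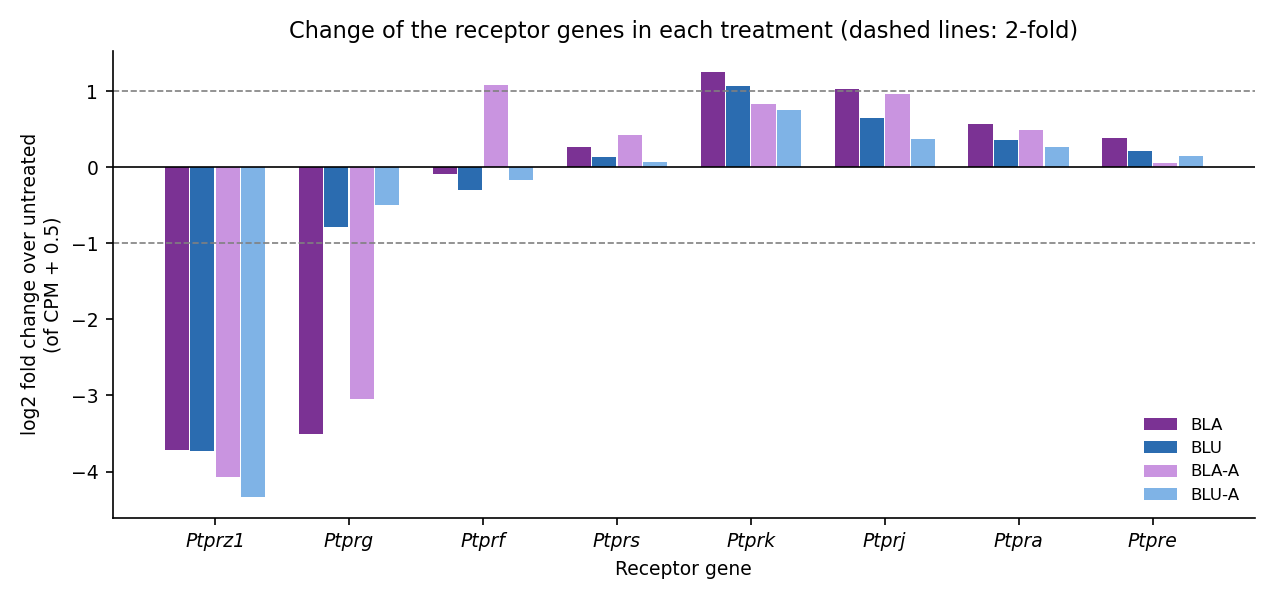
Log2 fold change of CPM plus 0.5 over untreated cells for the 8 receptor genes, 1 bar per treatment (1 library each, no replicate error), with dashed lines at -1 and 1. Ptprz1 is between -4.33 and -3.72 in all 4 treatments, and Ptprk between 0.76 and 1.25.

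The make-up of the receptor reads differed accordingly. Ptprz1 held 5.80% of the reads of the 8 receptors in untreated cells (95% Clopper-Pearson interval 5.55 to 6.07) and 0.263% (BLA), 0.293% (BLU), 0.209% (BLA-A) and 0.208% (BLU-A). Ptprk held 27.9% in untreated cells, 43.4% (BLA), 43.4% (BLU), 33.8% (BLA-A) and 39.6% (BLU-A). Summed over the 8 receptors, the level was 1186 CPM in untreated cells and 1817 (BLA), 1603 (BLU), 1741 (BLA-A) and 1416 CPM (BLU-A). The gene named highest in each list below was taken on CPM, with no correction for gene length. Levels between the 8 receptors were set side by side per kilobase of merged exons, in CPM. On that scale the untreated order was Ptprs (21.6), Ptprk (15.0), Ptprf (10.2), Ptpra (10.1), Ptpre (9.40), Ptprj (8.86), Ptprz1 (3.67) and Ptprg (0.472). Because reads were counted on whole genes, introns included, the order also depends on the length used. Per kilobase of gene span it ran from 5.66 for Ptprs and 1.31 for Ptpra to 0.385 for Ptprz1 and 0.00753 for Ptprg. Both scales put Ptprg last and Ptprz1 next to last.

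Nanoparticles and extracts were compared next, a contrast that did not choose the members. In BLA-A against BLA, 1 of the 8 receptors was past the threshold upward (Ptprf; 11.6% of all genes) and none downward (13.0%). In BLU-A against BLU, none was past it upward (2.89%) or downward (3.80%). Ptprz1 was 1.32-fold lower in BLA-A than in BLA (0.993 to 1.75) and 1.60-fold lower in BLU-A than in BLU (1.19 to 2.14). Ptprk was lower in the nanoparticles of both berries, by 1.34-fold (1.31 to 1.37) and 1.24-fold (1.22 to 1.27). In a fit with formulation and berry as terms, which leaves 1 residual degree of freedom, no receptor was called between nanoparticles and extracts (edgeR quasi-likelihood test, Benjamini-Hochberg adjusted p under 0.05; 2 of all genes called, 0.0114%). None of the 8 had an unadjusted p under 0.05 (5.72% of all genes), and DESeq2 called none. The log2 differences, nanoparticles minus extracts, were 0.65 with SE 0.32 for Ptprf (adjusted p = 0.783 in the edgeR test), -0.54 with SE 0.38 for Ptprz1 (adjusted p = 0.787 in the edgeR test) and -0.37 with SE 0.25 for Ptprk (adjusted p = 0.787 in the edgeR test). The call for Ptprf depended on the libraries: without the BLU-A library, and with berry out of the fit, its difference was 1.38 (adjusted p = 1.54e-05 in the edgeR test), and over the alternatives with 1 library per condition the adjusted p ran up to 1.00.

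**Figure D3:**
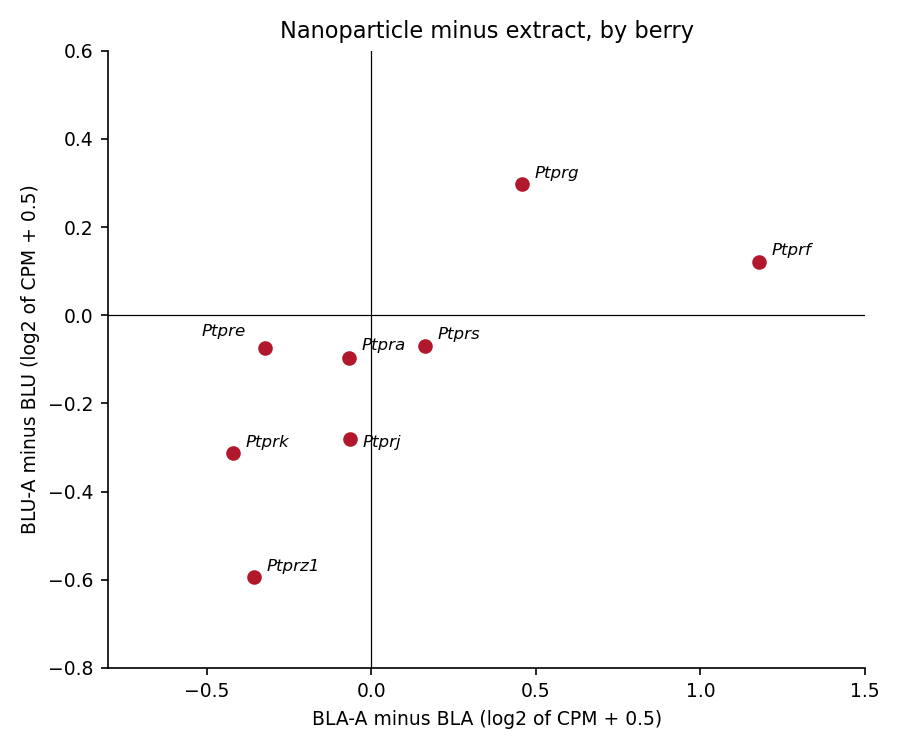
Difference in log2(CPM + 0.5) between nanoparticles and extract, BLA-A minus BLA on the horizontal axis and BLU-A minus BLU on the vertical axis, 1 point per receptor gene (1 library per condition, no replicate error). Ptprf lies far to the right, at 1.18 against 0.12, and Ptprz1 and Ptprk are below 0 on both axes.

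Between the berries, no receptor was called either (7 of all genes called, 0.0398%), while 2 of the 8, Ptprg and Ptprf, had an unadjusted p under 0.05 (4.29% of all genes). For Ptprg, the log2 difference of blackberry minus blueberry was -5.32 with SE 1.13, and the fitted size depends on how the library with 0 counts is handled (adjusted p = 0.608, edgeR quasi-likelihood test). Its mean level was 0.0936 CPM over the 2 blackberry libraries and 3.16 CPM over the 2 blueberry ones. DESeq2's Wald test called it (adjusted p = 0.00658), as did the edgeR test with total counts (adjusted p = 0.000549) and with no filter (adjusted p = 0.000192). Without the BLA library, and with formulation out of the fit, the edgeR test gave -4.04 (adjusted p = 1.35e-05), and without BLA-A -9.42 (adjusted p = 1.95e-08). Over the alternatives with 1 library per condition, its adjusted p ran from 1.95e-08 to 0.947, with the same sign in each. For Ptprf, the difference was 0.73 with SE 0.32 (adjusted p = 0.990, edgeR test), and 1.32 without BLA (adjusted p = 2.78e-12, edgeR test). For Ptprj it was 0.48 with SE 0.27 (adjusted p = 0.990, edgeR test), and 0.44 without BLA (adjusted p = 0.0461, edgeR test). For Ptprz1 it was 0.15 with SE 0.38 (adjusted p = 0.993, edgeR test).

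The rest of the receptor phosphatase family was low in these cells, and 10 of the 12 other genes in the table reached 1 CPM in any library. Of these 10, 5 were past the threshold downward with BLA (Ptprc, Ptprd, Ptprh, Ptprm and Ptpro), 3 with BLU (Ptprd, Ptprh and Ptpro) and 2 with BLU-A (Ptprc and Ptprd). BLA-A had 7, those of BLA plus Ptprn2 and Ptprt, and none of the 10 was past it upward in any treatment. Ptprh passed the filter on low values through the untreated library alone, with 0.0121 to 0.529 CPM in the treated ones. Its calls are therefore given as a description. The median log2 fold changes of the 10 were -0.66 (BLA), -0.50 (BLU), -1.59 (BLA-A) and -0.62 (BLU-A). Ptprd, the third receptor of the LAR branch, was the 1 gene past it in all 4, at 12.6 CPM in untreated cells and at 3.90 (BLA), 5.66 (BLU), 2.31 (BLA-A) and 2.36 CPM (BLU-A). Ptprt, a homophilic adhesion receptor like Ptprk, was the highest of the list in untreated cells at 15.0 CPM, and was at 12.5 (BLA), 9.04 (BLU), 4.02 (BLA-A) and 7.77 CPM (BLU-A). Ptpro, of the Ptprj branch, had the lowest mean log2 fold change (-1.79), with 7.43 CPM in untreated cells and 0.346 CPM in BLA-A. Ptpru had the highest (0.66), at 4.45 CPM in untreated cells and at 6.72 (BLA), 8.34 (BLU), 6.40 (BLA-A) and 7.93 CPM (BLU-A). Lower calls were commoner among low genes in general. Of all genes at 1 to 20 CPM in untreated cells, 15.7% (BLA), 8.90% (BLU), 20.5% (BLA-A) and 8.86% (BLU-A) were past the threshold downward. Of those at 20 CPM or more, 1.53% (BLA), 0.335% (BLU), 4.92% (BLA-A) and 0.121% (BLU-A) were. Ptprc, on the list, is also the leukocyte marker CD45, and was at 1.503 CPM in untreated cells and 0.196 to 1.13 CPM in the treated ones.

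**Figure D4:**
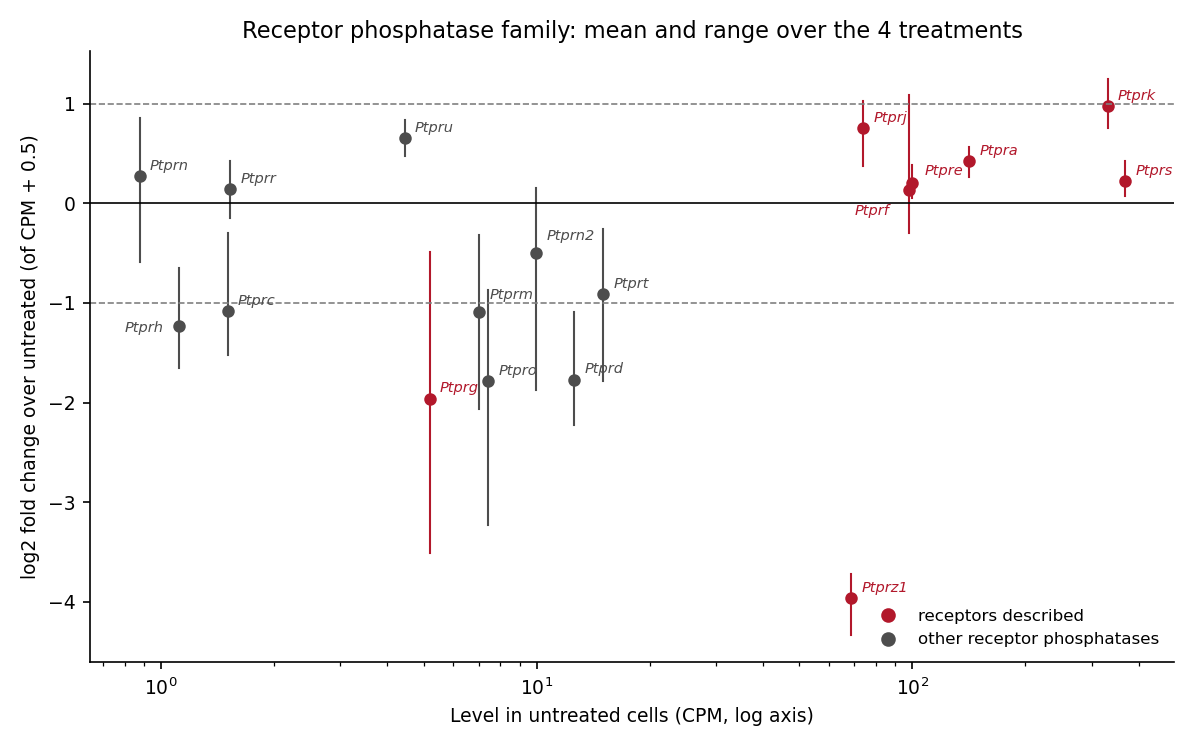
Level in untreated cells in CPM (log axis) against log2 fold change over untreated, for the 18 receptor phosphatase genes that reached 1 CPM, with a point for the mean and a line for the range over the 4 treatments (1 library each). Ptprz1 lies lowest, at a mean of -3.96, and the other genes with means below -1 are at 12.6 CPM or less in untreated cells.

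Among the other receptors of pleiotrophin and midkine, BLA-A stood apart in its list median. Of 14 that reached 1 CPM, 1 was past the threshold downward with BLA, BLA-A and BLU-A, in each case Alk, and none was with BLU. The downward shares of all genes were 8.51% (BLA), 4.62% (BLU), 12.3% (BLA-A) and 4.49% (BLU-A). In BLA-A, 2 of the 14 were past it upward (Sdc1 and Lrp1), against 8.55% of all genes. Alk, a receptor tyrosine kinase, had the lowest mean log2 fold change of the list (-1.18) and had 14.9 CPM without treatment and 6.88 (BLA), 8.46 (BLU), 4.28 (BLA-A) and 6.40 CPM (BLU-A). Nucleolin (Ncl), a nucleolar protein that also binds midkine at the cell surface, had the highest level, with 2075 CPM in untreated cells and 1071 to 1649 CPM in the treated ones. Ltk, a relative of Alk, had the highest mean (0.46). The list medians were -0.07 (BLA), -0.05 (BLU), 0.67 (BLA-A) and -0.05 (BLU-A). In BLA-A against BLA, 4 of the 14 were past it upward (Ltk, Sdc1, Sdc3 and Lrp1), against 11.6% of all genes. The 4 epithelial markers named beside Ptprf were past it upward in the same comparison, while Epcam was lower. The part of these markers in the values was not tested.

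Among 11 other ligands and binding partners of Ptprz1 or its relative Ptprg, all kept, Il34 had the highest CPM in untreated cells. It also had the highest mean log2 fold change (0.90). Il34, a cytokine that signals through Csf1r and binds Ptprz1, was at 38.0 CPM in untreated cells, 78.9 (BLA), 79.2 (BLU), 63.3 (BLA-A) and 65.5 (BLU-A). It was past the threshold upward in BLA (7.91% of all genes) and BLU (5.64%). The contactins, adhesion proteins that bind Ptprz1 (Cntn1) or Ptprg (Cntn3, Cntn4, Cntn5 and Cntn6), were low. Cntn1 (2.36 CPM in untreated cells) and Cntn4 (4.81 CPM) were past it downward in all 4 treatments, as were 2.79% of all kept genes under 10 CPM in untreated cells, and Cntn4 had the lowest mean (-1.76). Both are given as a description: Cntn1 passed the filter on low values through the untreated library alone, with 0.130 to 0.618 CPM in the treated ones. In all, 2 of the 11 were past it downward with BLA (8.51% of all genes), 2 with BLU-A (4.49%), and 3 with BLU (4.62%), where Cntn3 was added. At 1 to 20 CPM in untreated cells, the level of these contactins, the shares were 15.7% (BLA), 8.90% (BLU) and 8.86% (BLU-A). With BLA-A, 6 were past it downward (Tnr, Cntn1, Cntn3, Cntn4, Cntn5 and Cntn6) and 1 upward (Tnc), against 12.3% and 8.55% of all genes. These 6 were all at 1 to 20 CPM in untreated cells, where the share of all genes past it downward was 20.5%. The list medians were -0.21 (BLA), -0.16 (BLU), -1.49 (BLA-A) and -0.09 (BLU-A). In BLA-A against BLA, 3 of the 11 were past the threshold downward (Tnr, Cntn5 and Cntn6). The shares there were 13.0% of all genes and 16.9% of those at 1 to 20 CPM in untreated cells.

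The 9 substrates and scaffolds of Ptprz1 held no gene past the threshold downward against untreated cells. All 9 were at 20 CPM or more in untreated cells, where few genes were past it downward (0.121% in BLU-A to 4.92% in BLA-A). Magi1, a junction scaffold that binds Ptprz1 and related receptors, had the highest mean log2 fold change (1.15) and was at 356 CPM in untreated cells, 983 (BLA), 897 (BLU), 608 (BLA-A) and 738 (BLU-A). It was past the threshold upward in BLA, BLU and BLU-A, and Afap1l2 was past it in BLA. The upward shares of all genes were 7.91% (BLA), 5.64% (BLU), 8.55% (BLA-A) and 3.39% (BLU-A). At 20 CPM or more in untreated cells, they were 2.37% (BLA), 1.27% (BLU), 6.16% (BLA-A) and 0.282% (BLU-A). Ctnnb1, which encodes beta-catenin, had the highest untreated level, with 627 CPM there and 566 to 838 CPM in the treated libraries, and Git1 had the lowest mean (-0.16). The medians of the 9 were 0.12 (BLA), 0.12 (BLU), 0.08 (BLA-A) and 0.07 (BLU-A). Among 9 kept partners of the Ptprf and Ptprs branch, 3 were past the threshold downward with BLA and with BLA-A (Ppfia2, Ppfibp2 and Ntrk3). With BLU 1 was (Ntrk3), and with BLU-A 2 were (Ppfia3 and Ppfibp2). All of these were at 1 to 20 CPM in untreated cells. At that level, 15.7% (BLA), 8.90% (BLU), 20.5% (BLA-A) and 8.86% (BLU-A) of all genes were past it downward. The medians of the 9 were -0.01 (BLA), 0.14 (BLU), -0.34 (BLA-A) and -0.15 (BLU-A). Ppfibp1, of the liprin family of LAR-binding scaffolds, was the highest in untreated cells (254 CPM) and had a mean log2 fold change of 0.04. Trio, a guanine nucleotide exchange factor that binds LAR, had the highest mean (0.57) and Ntrk3, a neurotrophin receptor that binds Ptprs, the lowest (-1.59), from 4.27 CPM in untreated cells.

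The soluble tyrosine phosphatases, which lack a membrane-spanning part, had none of 16 past the threshold downward in any treatment. Of all genes, 4.49% (BLU-A) to 12.3% (BLA-A) were. Of those at 20 CPM or more in untreated cells, as most of the 16 were, the shares were 0.121% (BLU-A) to 4.92% (BLA-A). Ptpn5 was past the threshold upward in BLA and BLA-A, Ptpn6 in BLA-A, and Ptpn7 in BLU and BLU-A. Ptpn7 passed the filter on low values through treated libraries alone, those at 1.22 to 1.94 CPM. Without treatment it stood at 0.401 CPM, and with BLA it had 0 counts. The upward calls of Ptpn7 follow in part from the filter and are given as a description. Ptpn11, the growth-factor signalling phosphatase SHP2, was the highest at 267 CPM in untreated cells, and was at 230 (BLA), 233 (BLU), 151 (BLA-A) and 250 CPM (BLU-A). Ptpn5 had the highest mean (1.10), from 3.67 CPM, and Ptpn18 the lowest (-0.36). The list medians were 0.02 (BLA), 0.18 (BLU), 0.34 (BLA-A) and 0.12 (BLU-A).

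The pattern most like that of Ptprz1 was sought among genes with at least 10 CPM in untreated cells, as the smallest root mean square difference of the 4 log2 fold changes. The 5 nearest were Gm46392 (0.58), Fam20a (0.65), Pik3cg (0.76), Gm36372 (1.10) and Zfp423 (1.26). That all 5 were lower in each treatment follows from how they were picked, so they are given as a description. Fam20a, a secretory-pathway pseudokinase, had 24.9 CPM without treatment and 1.80 (BLA), 1.38 (BLU), 0.231 (BLA-A) and 1.60 CPM (BLU-A), and Pik3cg, a catalytic subunit of phosphoinositide 3-kinase, had 15.2 CPM without treatment and 0.994 CPM or less in the treated ones. Around Ptprz1 on chromosome 6, of 12 genes of the table that start within 1 Mb, 4 were kept, and none was past the threshold in all 4 treatments. Upstream, Fam3c (519 kb away) was at 61.4 CPM in untreated cells and 45.6 to 71.6 CPM in treated ones, Cped1 (890 kb) at 9.37 and 6.43 to 13.5, and Ing3 (926 kb) at 26.97 and 20.2 to 23.7. Downstream, Cadps2 (964 kb) was at 7.34 CPM in untreated cells and 2.52 to 5.68 CPM in treated ones, past the threshold downward in BLA-A. Aass, the nearest gene in the table (start 258 kb away) and named after its values were seen, was under 1 CPM in every library, at 0.727 CPM in untreated cells and 0 to 0.121 CPM in the treated ones.

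Cell identity was checked on marker lists. The 6 epithelial markers were all kept and summed to 1176 CPM in untreated cells and to 845 (BLA), 871 (BLU), 1521 (BLA-A) and 1016 CPM (BLU-A). In BLA-A this sum was above untreated cells while Epcam was below them, at 39.8 against 68.9 CPM. Among the glial markers, Mbp was at 36.9 to 62.2 CPM, Sox10 had at most 0.125 CPM and Olig1 was at 0 in every library. The leukocyte list summed to 0.634 to 3.05 CPM per library with Lyz2 at 0. The endothelial list summed to 2.94 to 7.05 CPM. The fibroblast list summed to 87.4 to 104 CPM, nearly all of it Pdgfra, with Lum at 0.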

How the data were processed

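Bulk RNA-seq of 4T1 cells was used, with the 15 labelled samples of 5 conditions. The authors removed ribosomal RNA, aligned reads to GRCm39 with STAR and counted them per gene, introns included, with a forward strand setting in OmicsBox, and deposited these counts without normalization. Their notes name DESeq2 1.36.0. A deposited table of fold changes, p-values and FDR, and one of gene set enrichment, hold the authors' own comparisons and were not used. The mean of the 3 columns of a condition was 1 library. The filter asked for 1 CPM or more in any library, TMM normalization came from edgeR 4.0.16, and folds were taken on CPM plus 0.5. Since each condition has 1 library, no treatment was tested against untreated cells, and p-values of the formulation and berry tests (edgeR quasi-likelihood, 17594 genes) rest on 1 residual degree of freedom. DESeq2 1.42.0 was an alternative. The tests were checked on simulated data. Exon lengths and positions are from GENCODE M39. The members and gene lists were chosen with earlier results of these data known. From each list were named the gene highest in untreated cells, those past the threshold in all 4 treatments, and those with the largest and smallest mean change. Further genes behind counts of 7 or fewer were named after their values were seen. Same-numbered columns of different conditions did not deviate together (mean correlation -0.000928, 30 pairs), so the numbers pair no samples. The symbols of all 10 members matched the annotation. The values of some marker genes are not reported here.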

Additional observations from a re-analysis of the deposited data

How the results depend on the processing

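The log2 fold changes of the 8 receptors kept their sign in 379 of 384 values over the alternatives for scaling, pseudocount, filter and columns, and 5 crossed the threshold. The number of receptors past the threshold stayed within 1.5 times of the value given in every comparison but BLA-A against BLA, where a pseudocount of 0.1 CPM gave 2, with Ptprg added at 1.52. The numbers of genes called in the formulation and berry tests were unstable. Nanoparticles against extracts gave 110 genes with total counts, 173 with no filter, 21 with DESeq2 and 0 without berry in the fit (1064 at an unadjusted p under 0.05). Blackberry against blueberry gave 97, 112, 17 and 0 (675 at an unadjusted p under 0.05) in the same order, the last without formulation. Leaving out 1 treated library, with the other factor out of the fit and the lone library of an arm taken to vary like the others, or 1 column number, gave 1 to 4124 genes for formulation, the highest without BLU-A, and 6 to 5024 for berry, the highest without BLA. The cause was not tested. In these same fits, differences of several receptors turned sign. For nanoparticles minus extracts, Ptprg, at 1.12 with all libraries, was at -2.76 without BLU-A and -0.57 without BLA and ran up to 8.59, and the others ran from -0.48 to 0.21 for Ptprj, -0.13 to 0.32 for Ptprs and -0.20 to 0.13 for Ptpra, and with total counts Ptprs was at -0.030. For blackberry minus blueberry they ran from -0.11 to 0.54 for Ptprz1, -0.094 to 0.33 for Ptprk and -0.12 to 0.20 for Ptpre, and with total counts Ptpre was at -0.066. With the 15 columns as separate samples, 11915 genes were called for formulation and 10558 for berry, against 11107 and 9641 in a fit that took the replicate number as a block. The block called 6 of the 8 receptors in each test, as did the fit without it, but these columns are not separate libraries.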
